A study of Rattus norvegicus with 6 samples.

Results

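The metallothionein genes, the metal-sensing transcription factor gene Mtf1 and a set of zinc transporter genes were followed in the rat aorta from the fresh vessel to the first day of culture. The set held 8 genes of the 14324 measured with an unambiguous symbol: Mt1 (listed under its older symbol Mt1a), Mt2A, Mt3, Mtf1, Slc30a1, Slc30a4, Slc39a8 and Slc39a10. Every array row annotated to exactly 1 of these symbols was taken, which gave 10 rows, since Mt1 and Mt2A had 2 rows each and the others 1. The genes were chosen by their function and selected on the log2 difference between day 0 and day 1, which was already known, so their levels and changes are given as a description without a test. The control group was aortic rings taken fresh from male Fisher 344 rats aged 1 to 2 months (day 0). The other group was rings from the same strain, sex and age, grown inside a collagen gel without serum, in EBM medium, for 1 day (day 1). There were 3 biological replicates of each, and RNA of 4 to 6 pooled rings or cultures went onto 1 whole-transcript array per replicate. Nothing in the labels tells whether an animal gave rings to more than 1 pool, so the spread between arrays may be partly technical. The rings hold the whole vessel wall, and in such bulk RNA fewer cells of a type and less RNA per cell cannot be told apart. The agent that differs is the day of culture as a whole, since time after cutting, gel and medium cannot be told apart.

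Metallothioneins are small cysteine-rich proteins that bind zinc and copper in the cytosol and also scavenge cadmium and oxidants. The zinc finger factor MTF1 senses free zinc and switches on metallothionein genes through metal response elements, short DNA motifs before the start site; oxidative stress, glucocorticoids and inflammatory signals also raise these genes. Zinc crosses membranes through the SLC30 family (ZnT), which moves it out of the cytosol to the outside or into vesicles, and the SLC39 family (ZIP), which moves it into the cytosol.

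Array medians lay between 5.87 and 5.95 on the log2 scale of the deposited values, and the Pearson correlation across genes was 0.996 to 0.997 within groups and 0.959 to 0.963 between them. For the cell type markers, rose and fell mean past the 0.05 threshold of the fit over all genes. Of all genes 27.6% passed it upward and 20.7% downward. Contractile smooth muscle markers had a mean level of 11.89 to 11.95 on day 0 and 8.21 to 8.40 on day 1, and 7 of 7 fell. Of the fibroblast markers 3 rose and 3 fell out of 6, and the mean level was 11.61 to 11.70 on day 0 and 11.60 to 11.70 on day 1. Of the macrophage markers 2 rose and 2 fell out of 6, with mean levels of 8.43 to 8.50 on day 0 and 8.60 to 8.78 on day 1. Of 4 measured endothelial markers 3 rose and 1 fell, with mean levels of 8.26 to 8.45 on day 0 and 8.62 to 8.75 on day 1. Of the adipocyte markers 5 of 6 fell (6.44 to 6.59 on day 0, 5.78 to 5.95 on day 1). In the erythroid list 2 of 3 measured genes fell and 0 rose (6.64 to 7.02, then 5.49 to 5.65). In the mast cell list 3 of 5 fell and 1, Kit, rose (3.98 to 4.20, then 4.01 to 4.12). In the lymphocyte list 1 of 3 measured genes fell and 0 rose (4.25 to 4.47, then 4.08 to 4.28), as in the Schwann cell list (6.77 to 6.96, then 6.37 to 6.47). Each of these 2 lists named 5 genes. The mean levels of the lymphocyte and mast cell lists lay below the array medians. The part of these shifts in the metal-handling genes was not tested.

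Among the metallothioneins, Mt1 and Mt2A stood far higher on day 1, and the Mt3 groups overlapped. The brighter Mt2A row read 9.72, 9.73 and 9.58 in the day 0 arrays and 13.52, 13.58 and 13.61 in the day 1 arrays. The groups were separated by at least 3.78 log2 units, while the arrays of a group lay close together. The log2 change was 3.89 ± 0.07 (standard error, n = 3 per group), a 14.8-fold rise in level and the rise of rank 13 among the 14324 genes. Mt2A encodes a metallothionein made in most tissues. Its day 1 values lay close to the top of the range of these arrays, where the highest value was 13.97 to 14.16. How far the signal was compressed there was not tested.

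The other Mt2A row read 8.55, 8.64 and 8.41 on day 0 and 13.08, 13.23 and 13.31 on day 1, a log2 change of 4.67 ± 0.09 (n = 3 per group), or 25.5-fold. Both rows separated the groups, but they did not give the same size of change. The brighter row exceeded the other by 1.15 on average on day 0 and by 0.36 on day 1 (log2 difference between rows in the same array).

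Mt1, which encodes the metallothionein that is induced together with Mt2A in most tissues, read 9.48, 9.43 and 9.38 on day 0 and 12.61, 12.59 and 12.80 on day 1 in its brighter row. All day 1 arrays lay at least 3.11 log2 units above all day 0 arrays. The log2 change was 3.23 ± 0.07 (n = 3 per group), 9.41-fold, the rise of rank 25. The other Mt1 row read 9.21, 9.22 and 9.16 on day 0 and 12.41, 12.40 and 12.61 on day 1, a change of 3.28 ± 0.08 (n = 3 per group). The Mt1 rows thus gave nearly the same change, and their difference within an array stayed between 0.19 and 0.27. The rat gene table also lists 4 metallothionein pseudogenes, and the sources used here do not give which copies the probes of each row read. Mt1 and Mt2A signals may therefore include near-identical sequences. Within day 1, replicate 3 gave the highest value in 4 of the 4 Mt1 and Mt2A rows, and within day 0, replicate 3 gave the lowest in 4 of 4.

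**Figure D1:**
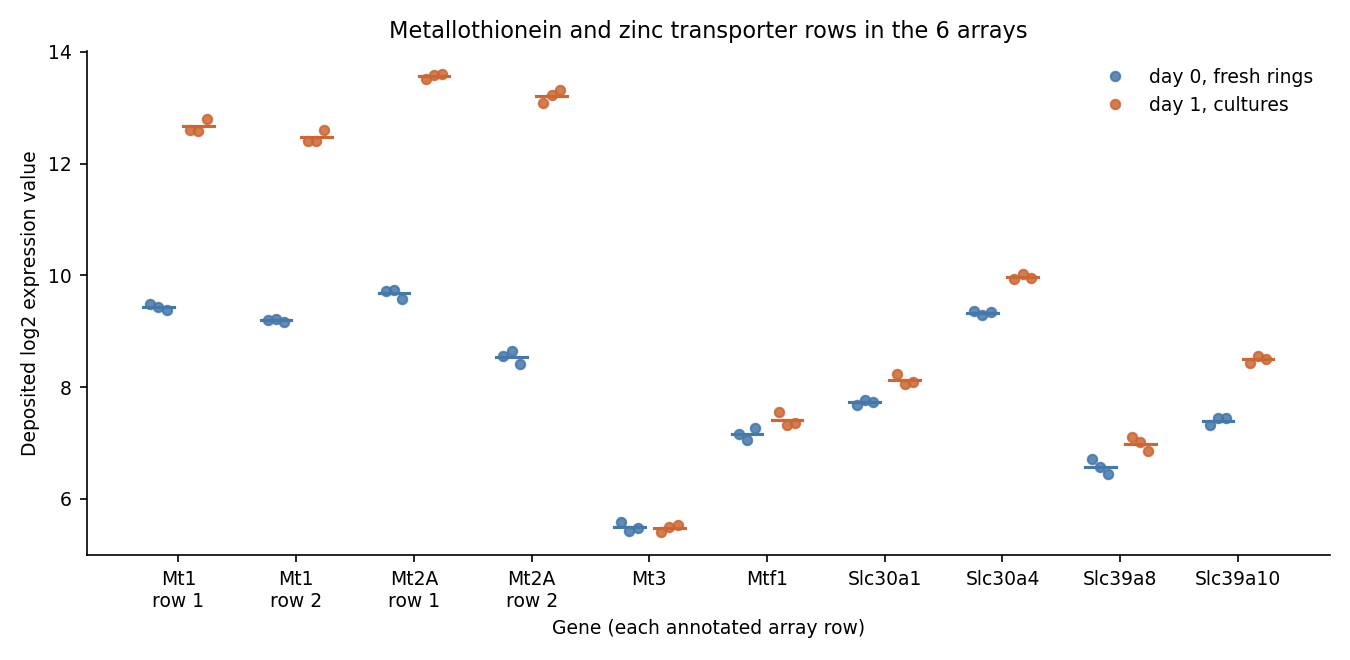
Deposited log2 values of each annotated row (horizontal axis) in the 6 arrays, with 1 point per array, day 0 in blue and day 1 in orange, and a bar at each group mean (n = 3). The Mt1 and Mt2A rows part by more than 3 log2 units, the Mt3 groups overlap, and the Mtf1 and transporter rows part by 1.00 or less between their nearest arrays.

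Mt3, a metallothionein best known from the brain as a growth inhibitory factor, read 5.58, 5.42 and 5.47 on day 0 and 5.40, 5.49 and 5.53 on day 1. The groups overlapped, and the change was -0.02 ± 0.07 (n = 3 per group). These values lay below the array medians. The remaining metallothionein gene, Mt4, known from stratified epithelium, was added after the values had been seen. It read 4.94, 4.93 and 5.10 on day 0 and 4.96, 5.43 and 4.91 on day 1 (limma adjusted p = 0.564), so its groups also overlapped.

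The promoters of the metallothionein genes show the sequence through which MTF1 is known to act, and are printed because Mt1 and Mt2A were higher on day 1 while the Mt3 groups overlapped. Each window holds 250 bases before and 50 bases after the RefSeq start site in assembly GRCr8, on the strand of the gene. It was searched on both strands for the core letters TGCACNC and TGCGCNC of the metal response element, where N is any base. Capitals mark the matches, which did not overlap each other. The windows are chr19:10832926-10833225 for Mt1, chr19:10838659-10838958 for Mt2A and chr19:10856031-10856330 for Mt3, all on the minus strand.
Mt1: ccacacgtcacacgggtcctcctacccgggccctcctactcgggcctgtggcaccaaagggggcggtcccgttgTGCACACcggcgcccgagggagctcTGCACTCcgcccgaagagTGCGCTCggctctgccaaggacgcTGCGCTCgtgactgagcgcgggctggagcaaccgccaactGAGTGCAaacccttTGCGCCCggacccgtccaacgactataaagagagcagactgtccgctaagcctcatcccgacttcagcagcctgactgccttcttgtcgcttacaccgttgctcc
Mt2A: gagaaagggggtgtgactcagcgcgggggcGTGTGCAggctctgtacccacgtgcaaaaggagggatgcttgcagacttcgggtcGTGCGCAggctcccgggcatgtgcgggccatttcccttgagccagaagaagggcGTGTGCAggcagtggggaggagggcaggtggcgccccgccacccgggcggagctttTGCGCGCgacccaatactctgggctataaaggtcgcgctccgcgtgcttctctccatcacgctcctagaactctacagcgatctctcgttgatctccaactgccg
Mt3: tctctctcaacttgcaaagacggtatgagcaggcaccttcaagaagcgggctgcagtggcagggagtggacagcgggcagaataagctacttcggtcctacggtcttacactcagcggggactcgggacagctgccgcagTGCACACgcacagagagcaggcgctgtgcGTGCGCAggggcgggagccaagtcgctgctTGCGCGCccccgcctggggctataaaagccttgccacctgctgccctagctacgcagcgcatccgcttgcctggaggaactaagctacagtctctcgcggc

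The Mt1 window held 6 matches, all before the start site, between 176 and 49 bases upstream. The Mt2A window held 4 matches, between 220 and 49 bases upstream, and the Mt3 window held 3, between 110 and 45 bases upstream. Of all 33469 rat promoter windows, 24.2% held at least 1 match, 1.13% at least 3, 0.257% at least 4 and 0.0299% at least 6. The matches were thus more frequent in these 3 windows than in most windows, in Mt3 as in the genes that were higher on day 1. The window of Mt4, which is not printed, held only 1 match. Counted with TGCACNC alone, the numbers were 3 in Mt1, 2 in Mt2A and 1 in Mt3. With this core 12.2% of all windows held at least 1 match, 1.09% at least 2 and 0.152% at least 3. The letters TGACNNNGC of the antioxidant response element, through which NRF2 acts, occurred once in Mt1 and once in Mt2A and had 0 matches in Mt3. At least 1 such match was held by 12.1% of all windows. Elsewhere in the set these letters had 2 matches in Mtf1, 1 each in Slc30a1 and Slc39a8, and 0 in Slc30a4 and Slc39a10. How these counts relate to the changes was not tested. The guanine and cytosine content was 65.0% in Mt1, 63.7% in Mt2A and 62.7% in Mt3, against a median of 51.7% over all windows, and its part in the match counts was not tested. A match describes letters and not a bound site.

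**Figure D2:**
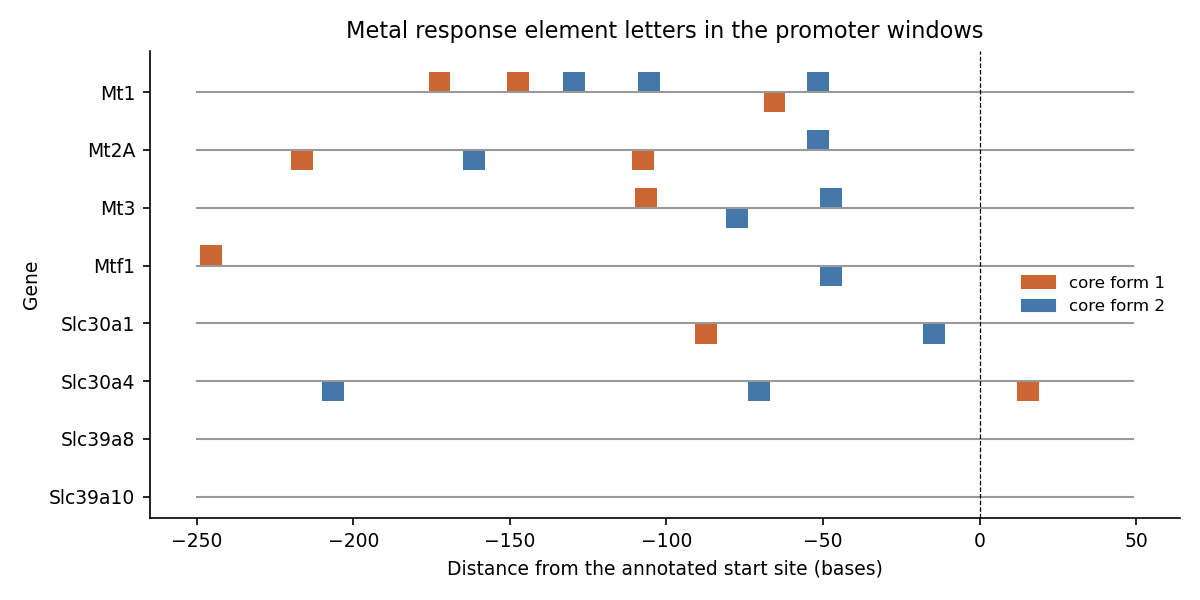
Matches to the metal response element core in the promoter window of each gene, by distance from the annotated start site in bases (dashed line at 0), with orange for the core TGCACNC (form 1), blue for TGCGCNC (form 2), and blocks above the line for the strand of the gene and below it for the opposite strand. Mt1 holds 6 matches, Mt2A 4 and Mt3 3, and the Slc39a8 and Slc39a10 windows hold 0.

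Mtf1, the metal sensor itself, differed little. It read 7.17, 7.06 and 7.26 on day 0 and 7.55, 7.32 and 7.35 on day 1, a change of 0.24 ± 0.09 (n = 3 per group). The groups did not overlap, but the nearest arrays were only 0.06 apart. Its promoter window, at chr5:142346804-142347103, held 2 matches to the metal response element core.

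The exporter genes were modestly higher on day 1. Slc30a1 encodes the zinc exporter of the plasma membrane and is a known MTF1 target. It read 7.68, 7.77 and 7.74 on day 0 and 8.24, 8.05 and 8.09 on day 1. Every day 1 array lay above every day 0 array, by at least 0.28, and the change was 0.40 ± 0.07 (n = 3 per group), or 1.32-fold. Slc30a1 thus moved in the same direction as Mt1 and Mt2A with a far smaller log2 change. Slc30a4 encodes an exporter that loads zinc into vesicles and endosomes. It read 9.36, 9.29 and 9.35 on day 0 and 9.94, 10.02 and 9.96 on day 1, a change of 0.64 ± 0.06 (n = 3 per group), or 1.56-fold, with the groups at least 0.58 apart. The Slc30a1 window, at chr13:106021769-106022068, held 2 matches to the metal response element core and is shown for comparison with the metallothionein windows.
Slc30a1: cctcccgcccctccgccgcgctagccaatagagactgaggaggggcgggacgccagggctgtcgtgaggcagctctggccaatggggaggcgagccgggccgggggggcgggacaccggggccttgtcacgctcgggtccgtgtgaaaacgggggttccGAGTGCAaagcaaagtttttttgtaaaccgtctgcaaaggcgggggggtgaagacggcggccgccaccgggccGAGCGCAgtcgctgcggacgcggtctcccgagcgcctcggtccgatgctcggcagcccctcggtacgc
The Slc30a4 window, at chr3:130228839-130229138, held 3 matches, 1 of them after the start site, in a window of 82.3% guanine and cytosine.

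The importer genes of the set were also higher on day 1. Slc39a10 encodes a plasma membrane importer. It read 7.32, 7.44 and 7.44 on day 0 and 8.44, 8.55 and 8.51 on day 1. The groups were at least 1.00 apart and the change was 1.10 ± 0.07 (n = 3 per group), or 2.14-fold, the largest among the transporters of the set. Slc39a8 encodes an importer that carries zinc, manganese and cadmium. It read 6.72, 6.57 and 6.44 on day 0 and 7.10, 7.02 and 6.85 on day 1, a change of 0.41 ± 0.10 (n = 3 per group). Its groups lay only 0.13 apart at their nearest arrays. The Slc39a8 window, at chr2:226929941-226930240, and the Slc39a10 window, at chr9:62405183-62405482, held 0 matches to the metal response element core, and their letters are not printed.

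Counted together, 6 of the 8 genes were past the 0.05 threshold upward and 0 downward in the fit over all genes. Of all genes 48.3% were past it, 27.6% upward and 20.7% downward. The groups did not overlap in 7 of the 8 (all but Mt3), each time higher on day 1, against 56.9% of all genes in either direction and 31.4% upward. The median change of the 8 genes was 0.53, against -0.01 over all genes. Because the genes were listed with this difference known, these counts describe the set and nothing is read from them.

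**Figure D3:**
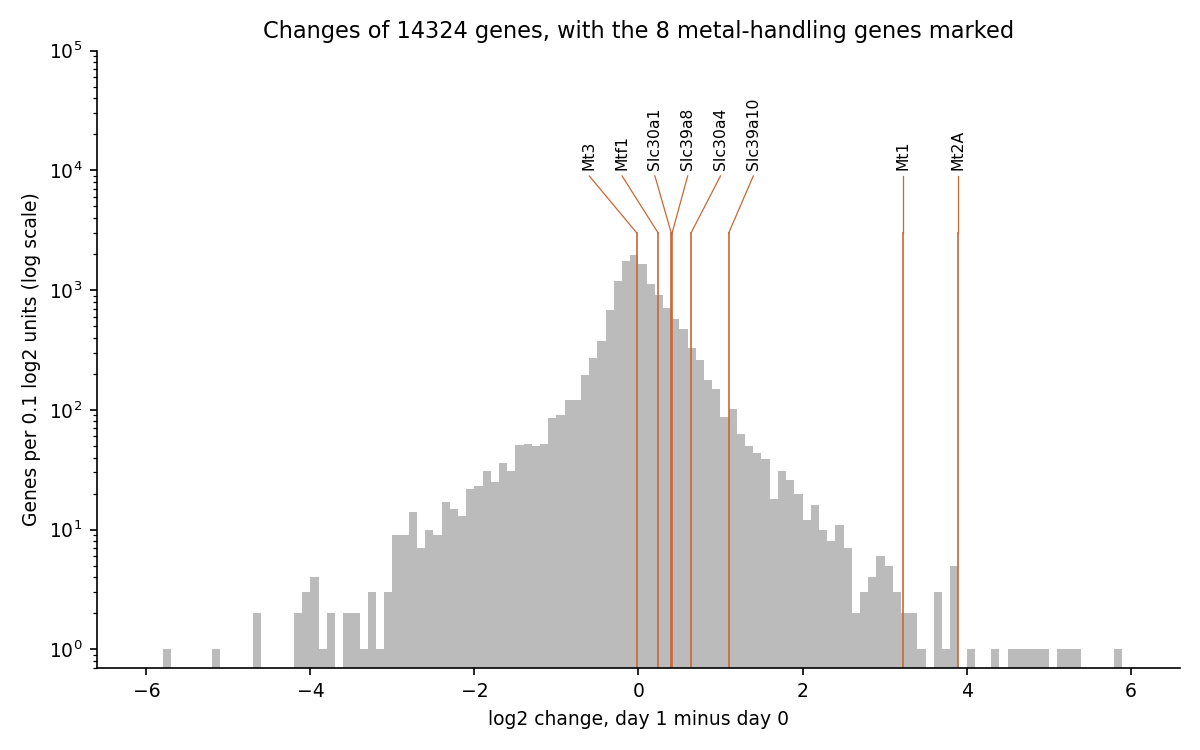
Histogram of the log2 change (day 1 minus day 0, horizontal axis) of 14324 genes, with genes per 0.1 log2 units on a log scale, and an orange line at each gene of the set (brightest row of Mt1 and Mt2A). Mt1 at 3.23 and Mt2A at 3.89 lie in the far upper tail, while Mt3 at -0.02 lies at the centre.

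The rest of the 2 transporter families went both ways. This remainder leaves out the 4 transporters of the set, which were all higher and had been selected on that difference. Over the whole families, 3 of 10 SLC30 genes were past the threshold upward and 1 downward, and 5 of 14 SLC39 genes upward and 3 downward. Of 20 other zinc transporter genes, 4 rose, 4 fell and 12 did not pass the threshold (limma, Benjamini-Hochberg adjusted over all genes), against 27.6% and 20.7% of all genes. Their median change was -0.12, against -0.01 over all genes. Among 8 exporter genes 1 rose and 1 fell, and among 12 importer genes 3 rose and 3 fell.

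Among the importers, the gene with the largest rise was Slc39a14, which encodes a plasma membrane carrier of zinc, iron and manganese and is closely related to Slc39a8. It read 10.06, 10.14 and 10.03 on day 0 and 11.51, 11.47 and 11.46 on day 1, a change of 1.40 ± 0.06 (n = 3 per group), or 2.64-fold (limma adjusted p = 8.49e-07). The day 1 arrays all lay far above the day 0 arrays. Slc39a6, the closest relative of Slc39a10, read 8.50, 8.39 and 8.40 on day 0 and 9.34, 9.28 and 9.44 on day 1, a change of 0.92 ± 0.07 (limma adjusted p = 1.69e-05). Slc39a1, a widely expressed plasma membrane importer, rose by 0.63 ± 0.07 (limma adjusted p = 0.00012).

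Among the importers that fell were Slc39a13 and Slc39a7, which act on internal membranes. Slc39a13, which works in the Golgi and in vesicles and is needed for connective tissue, read 9.06, 9.10 and 9.02 on day 0 and 8.46, 8.21 and 8.20 on day 1, a change of -0.77 ± 0.08 (limma adjusted p = 0.00013). Slc39a7, which releases zinc from the endoplasmic reticulum, read 9.74, 9.68 and 9.66 on day 0 and 9.25, 9.05 and 9.06 on day 1, a change of -0.57 ± 0.07 (limma adjusted p = 0.000369). In neither gene did the groups overlap, which held for 56.9% of all genes. Slc39a4, the intestinal importer, fell by 0.41 ± 0.10 (limma adjusted p = 0.00923) from a level of 5.33 that lay below the array medians. The importers that did not pass were Slc39a2 (-0.16), Slc39a3 (0.17), Slc39a5 (-0.21), Slc39a9 (-0.07), Slc39a11 (-0.19, adjusted p = 0.0521) and Slc39a12 (-0.14). The Slc39a11 change passed without day 1 replicate 1 (adjusted p = 0.0435), with the dimmest 25% of genes left out (adjusted p = 0.0297), and with quantile normalization (adjusted p = 0.0158), an intensity trend (adjusted p = 0.0437) or array weights (adjusted p = 0.0486). Slc39a2 also came under the threshold with the dimmest 25% of genes left out (adjusted p = 0.0491), and Slc39a3 with median centring (0.22, adjusted p = 0.0479).

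Among the exporters, Slc30a7, which brings zinc into the Golgi, rose by 0.33 ± 0.07 (limma adjusted p = 0.00532), a call that quantile normalization ended (adjusted p = 0.0532). Slc30a8, the exporter of insulin granules, was at -0.29 ± 0.09 with a day 0 level of 4.10 (limma adjusted p = 0.0315). It missed the threshold when any array except day 1 replicate 1 was left out (adjusted p = 0.0554 to 0.0971), and under median centring (adjusted p = 0.0583), an intensity trend (adjusted p = 0.0623) or quantile normalization (adjusted p = 0.0948). Slc30a10, an exporter of manganese, was at -0.24 (limma adjusted p = 0.0522), and leaving out day 1 replicate 1 (adjusted p = 0.0204) or weighting the arrays (adjusted p = 0.043) brought it past the threshold. The pair that acts together in the early secretory pathway, Slc30a5 and Slc30a6, was at -0.09 and 0.11. Slc30a5 passed with quantile normalization (-0.19, adjusted p = 0.0222). Slc30a9 of mitochondria was at 0.01, Slc30a3 of synaptic vesicles at -0.16 and Slc30a2 of lysosomes and secretory vesicles at -0.11. None of these 5 passed the threshold on the values as deposited.

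**Figure D4:**
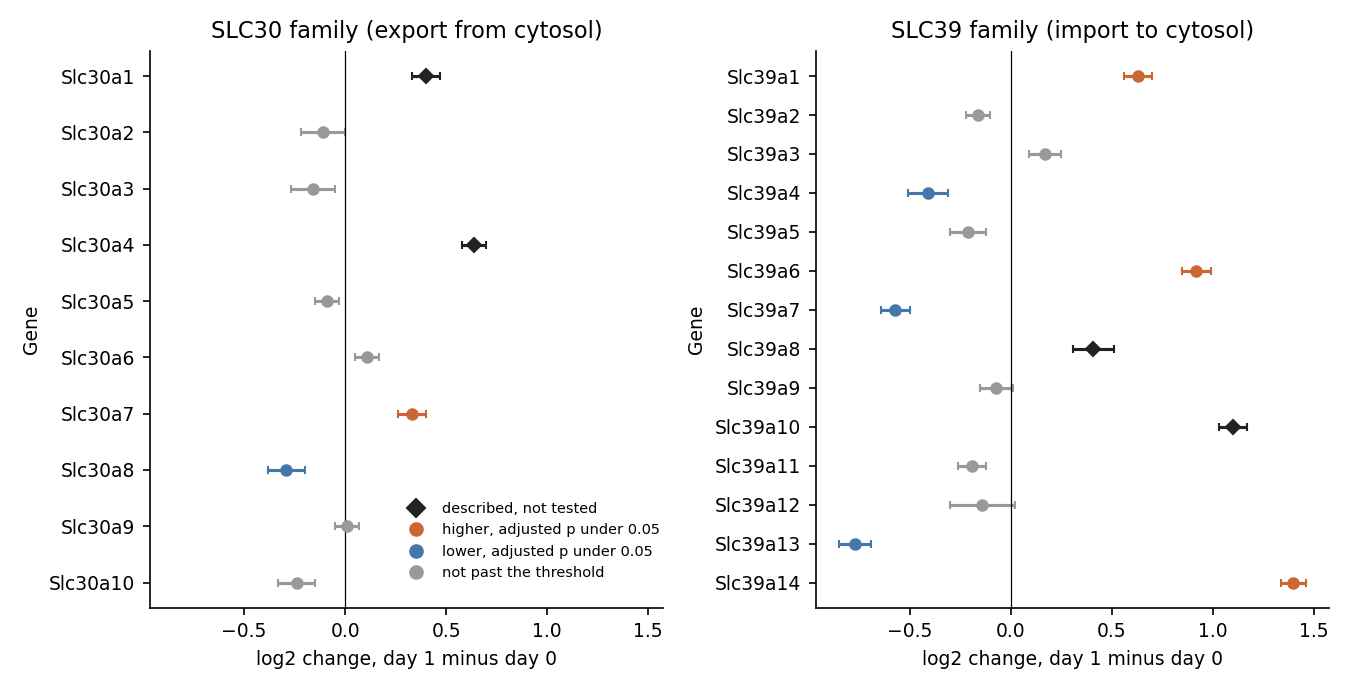
Log2 change (day 1 minus day 0, horizontal axis) of each measured gene of the SLC30 family (left) and the SLC39 family (right), with bars of 1 standard error (n = 3 per group). Black diamonds are the genes of the set, orange and blue circles are other genes that rose or fell, and grey circles did not pass the threshold; the changes run from -0.77 for Slc39a13 to 1.40 for Slc39a14.

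The promoter windows matched for 15 of these 20 transporter genes held a metal response element match in 6 genes, or in 41.2% of their 17 windows. This stood against 24.2% of all windows. The tested genes with a single window are a closer comparison. Of these 11385 genes, 7806 had 0 matches, 3391 had 1 or 2, 180 had 3 or 4 and 8 had 5 or more. Their median guanine and cytosine content was 58.0%, against 51.7% over all windows. The 41.2% counts both overlapping windows of Slc39a7, and the part of guanine and cytosine content was not tested. At most 3 matches lay in a window. Slc39a7, which fell, had 3 in each of its overlapping windows, as did 1 window of Slc30a2, which did not pass the threshold and whose other window had 0. Slc39a13, which fell, had 2. Slc39a1, which rose, and Slc30a5 and Slc39a11, which did not pass, had 1 each. Slc39a6, which rose, had 0. No window was matched for Slc39a14 and Slc30a7, which rose, for Slc39a4 and Slc30a8, which fell, or for Slc30a10, which did not pass.

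Other genes described as MTF1 targets did not move one way. Of 8 such genes 5 rose and 3 fell, against 27.6% and 20.7% of all genes, with a median change of 0.31. Pgf, a placental growth factor gene, read 6.84, 6.87 and 6.79 on day 0 and 8.98, 8.87 and 8.69 on day 1, a change of 2.01 ± 0.08 (limma adjusted p = 7.25e-07). Gclc, the catalytic subunit of glutathione synthesis, read 8.54, 8.50 and 8.53 on day 0 and 9.69, 9.68 and 9.73 on day 1, a change of 1.18 ± 0.06 (limma adjusted p = 1.5e-06). The arrays of both genes were cleanly parted, and the groups overlapped in none of the 8 genes. Among all genes, 56.9% had groups that did not overlap. Smaller rises were those of the iron hormone gene Hamp (0.55 ± 0.10), the stress-responsive gene Ndrg1 (0.40 ± 0.06) and the prion protein gene Prnp (0.23 ± 0.06). For Prnp the call was lost with quantile normalization (0.14, adjusted p = 0.11). The genes that fell were Csrp1, a LIM protein gene that is abundant in smooth muscle (-1.87 ± 0.07), the selenoprotein gene Selenow (-0.49 ± 0.08) and the iron exporter gene Slc40a1 (-0.31 ± 0.06). The fall of Csrp1 stood beside that of the contractile smooth muscle markers (median change -3.98), and their part in it was not tested.

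Genes for handling copper, the other metal that metallothioneins store, rose more often than they fell. Of 15 measured genes 8 rose and 3 fell, against 27.6% and 20.7% of all genes, with a median change of 0.30. The largest rise was that of Cp, the copper-carrying plasma oxidase ceruloplasmin, which read 9.63, 9.61 and 9.57 on day 0 and 11.74, 11.83 and 11.73 on day 1 (2.17 ± 0.06, limma adjusted p = 1.34e-07). The metalloreductase genes Steap3 (2.06 ± 0.07, limma adjusted p = 2.43e-07) and Steap4 (0.94 ± 0.09, limma adjusted p = 7.16e-05), whose products reduce iron and copper, and the cytosolic copper-zinc superoxide dismutase gene Sod1 (0.52 ± 0.06, limma adjusted p = 0.000151) followed. The groups did not overlap in any of these 4 genes, which were named for the size of their change past the threshold. Of all genes, 56.9% had groups that did not overlap. Of the 3 that fell, Sod3 changed by -0.43 ± 0.06 (limma adjusted p = 0.000758) and Cox11 by -0.38 ± 0.06 (limma adjusted p = 0.00118), without overlap of the groups. The copper chaperone gene Atox1 was at -0.24 ± 0.06 (limma adjusted p = 0.0174), also without overlap of the groups. Atox1 lost its call when day 0 replicate 2 (adjusted p = 0.05), day 0 replicate 3 (adjusted p = 0.0614) or day 1 replicate 2 (adjusted p = 0.0588) was left out. Slc31a2, an intracellular copper transporter gene, missed the threshold on the values as deposited (0.30, adjusted p = 0.102). It passed with the replicate number as a block (adjusted p = 0.0134), with an intensity trend (adjusted p = 0.0331) and when day 0 replicate 1 was left out (0.42, adjusted p = 0.0234). Cox17, a copper chaperone gene of mitochondria (0.15, adjusted p = 0.0696), passed under median centring (0.20, adjusted p = 0.0279), with the dimmest 25% of genes left out (adjusted p = 0.0411) and with an intensity trend (adjusted p = 0.011). Atp7a, a copper pump gene (-0.07, adjusted p = 0.42), passed downward under quantile normalization (-0.17, adjusted p = 0.0415). Sod3, Cox11, Atox1, Slc31a2, Cox17 and Atp7a were singled out after their values had been seen.

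The genes whose profile over the 6 arrays lay nearest to that of Mt1 and Mt2A were named by the Euclidean distance between log2 values centred on each gene's own mean. The arrays form 2 groups, so this likeness mostly reflects an equal size of change, and it is a description. Nearest to Mt1 were Ahr, the aryl hydrocarbon receptor gene (distance 0.19), the interleukin-33 receptor gene Il1rl1 (0.20), the retinol-esterifying enzyme gene Lrat (0.27), Steap1 (0.27) and the quinone reductase gene Nqo1 (0.29), with changes from 3.09 to 3.42. Nearest to Mt2A were the fractalkine gene Cx3cl1 (0.13), the glycoprotein gene Gpnmb (0.22), the growth arrest gene Gadd45a (0.25), the glucocorticoid-activating enzyme gene Hsd11b1 (0.26) and the xanthine dehydrogenase gene Xdh (0.30), with changes from 3.65 to 4.03.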

How the data were processed

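The authors' deposited table held log2 expression values, 1 per transcript cluster, in 27342 rows and 6 array columns. That they are log2 was judged from their range. Per the labels' protocols, 200 ng of total RNA was labelled for whole-transcript arrays. The submitters' processing notes name limma, and the normalization is not given in those notes, the labels or the table. Rows were named through the array annotation, and old symbols were replaced through gene IDs or accessions in a GRCr8 gene table. A total of 15097 rows had 1 symbol, 323 several and 11922 none. Of several rows of a gene, the brightest was kept, giving 14324 genes. All genes were fitted with limma 3.58.1 in R 4.3.3 (lmFit, eBayes, no trend, filter or block), two-sided, with Benjamini-Hochberg adjustment and a threshold of 0.05. Standard errors of second rows come from the same fit over all rows. Values after ± are standard errors. On simulated data with 14324 genes, 50 of them changed at each size, the fit recovered 66% of rises of 0.5 log2 units. It recovered 98% of rises of 1 log2 unit, and 7 of 187 calls were false. Far fewer genes changed there than were called in the real data, so these shares do not give the recovery of the real fit. The genes of the set, the lists and the tests were chosen with earlier results of these data known. Named were the set, all listed zinc transporter and MTF1 target genes, the 4 copper genes with the largest change past the threshold, and the 5 nearest profiles to Mt1 and to Mt2A. Mt4, further copper genes, the cell marker Kit and the genes with 5 or more promoter matches were added after their values had been seen. Promoter sequences are RefSeq's (GRCr8), matched by symbol for 8 of 8 genes. Tables and figures were made in Python 3.11.15 (pandas 2.3.3, matplotlib 3.10.9). The number of arrays limits the precision.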

Additional observations from a re-analysis of the deposited data

How the results depend on the processing

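Over 15 alternatives, the changes of Mt1 lay between 3.08 and 3.28, of Mt2A between 3.80 and 4.67 (the top value from its more variable row), of Mt3 between -0.06 and 0.06, of Mtf1 between 0.17 and 0.29, of Slc30a1 between 0.31 and 0.45, of Slc30a4 between 0.55 and 0.69, of Slc39a8 between 0.35 and 0.48 and of Slc39a10 between 1.01 and 1.15. Of these 8 genes, Mtf1 was the one whose side of the threshold differed, with median centring, without the dimmest 25% of genes, with an intensity trend and robust prior, and without day 0 replicate 3. Of 627 values for the 42 listed transporter, MTF1 target, leading copper and nearest-profile genes, 602 kept direction and side, 10 lost the call, 10 gained it and 5 changed sign. The sign changes were in genes that never passed there: Slc30a9 with quantile normalization (-0.10), and, with an array left out, Slc30a9 (-0.01 to 0.03), Slc30a2 (-0.17 to 0.00) and Slc39a12 (-0.30 to 0.04); the cause was not tested. With every row as a feature, 5771 features were higher and 4483 lower, over more features tested. In the other settings, counts of genes higher ran from 3471 (quantile normalization) to 4319 (median centring) and counts lower from 2460 (median centring) to 3028 (array weights). The replicate number as a block gave 3815 genes higher and 2871 lower. Same-numbered arrays did not deviate together (correlations of 0.011 to 0.036), so the labels' numbers were not taken as a pairing. No depth is given for arrays.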

Other observations

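Metal response element letters were also set against the changes of all tested genes with a single promoter window, as a description. Of 11385 such genes, 28.1% rose and 19.9% fell. Among the 7806 genes with 0 matches 26.1% rose, among the 3391 with 1 or 2 matches 32.5% rose, and among the 180 with 3 or 4 matches, which include Mt2A, Mt3 and Slc30a4, 35% rose. The shares that fell were 19%, 21.9% and 23.3%. The median guanine and cytosine content of the windows moved alongside, at 55.3%, 62.7% and 67.7%, and its part was not tested. Of the 8 genes with 5 or more matches, Mt1 rose by 3.23, and Kcnh1 (0.54) and Scamp1 (0.34) also passed the threshold upward, while Plod2 (-0.82) and Palm (-0.40) fell and Notch1 (0.04), P4hb (0.01) and Camk2b (-0.14) did not pass.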
